A study of Mus musculus with 9 samples.

Results

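The type I interferon antiviral programme was followed in mouse intraperitoneal macrophages through 39 genes chosen by symbol: Rsad2, Cmpk2, the Ifit genes Ifit1, Ifit2 and Ifit3, the GTPases Mx1 and Mx2, the OAS genes Oas1a, Oas1g, Oas2, Oas3, Oasl1 and Oasl2, and Isg15, Isg20, Usp18, Irf7, Irf9, Stat2, Ddx58, Ifih1, Dhx58, Ifi44, Ifi35, Bst2, Xaf1, Rtp4, Zbp1, Eif2ak2, Trim30a, Parp14, Herc6, Epsti1, Samd9l, Tor3a, Adar, Ddx60, Parp9 and Dtx3l. The interferon-inducible GBP and IRG GTPases were left out by that rule. All 39 were found among the 15343 genes of the deposited table, and all 39 were among the 13895 genes kept for testing, so no gene of the set was lost to the filter on low values.

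RNA was sequenced from primary macrophages of mice marked WT (wild type) in the sample titles, of a strain written CF7B1/6. All 3 groups were given lipopolysaccharide (LPS, an endotoxin of bacteria and the ligand of TLR4) for 6 h at a concentration of 100 ng/ml. The LPS group has no pretreatment in its labels, the DHA group was first kept for 1 h in 100 µM of the omega-3 lipid docosahexaenoic acid (DHA), and the cpdA group received 10 µM cpdA, which the series names a selective agonist of the fatty acid receptor Gpr120, for 1 h before LPS. There were 3 libraries in each group, numbered 1 to 3. No vehicle is named for the LPS group and unstimulated cells were not analysed here, which limits the comparisons to LPS-treated cells and leaves any effect of the pretreatment step itself within them. The labels do not say whether libraries came from separate animals or from pools. In bulk RNA, fewer cells of a type and less RNA per cell cannot be told apart.

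Macrophages that sense LPS make interferon beta, which leaves the cell, binds the receptor IFNAR1 and IFNAR2 and, through the kinases JAK1 and TYK2, activates STAT proteins. STAT2 and IRF9 act in the complex ISGF3, which binds the interferon-stimulated response element (ISRE) in the promoters of antiviral genes. Their products sense viral RNA, degrade it, block its translation or its assembly into particles, and include IRF7, STAT2 and IRF9, so the programme feeds back on its own induction.

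Promoter sequence was available for 29 of the 39 genes in RefSeq windows of the build GRCm38.p6, each running from 250 bases before to 50 bases after a gene's start. The ISRE core, searched on either strand as GAAA, any 2 bases and GAAA again (TTTC, any 2 bases and TTTC where it lies on the other strand), occurred in the window of 14 of these 29 genes (48.3%), against 3.99% of the 27025 genes with a window. With only the 250 bases before the start, 11 of 29 genes held it, against 3.46% of genes. The 14 were Ifit1, Ifit3, Eif2ak2, Trim30a, Stat2, Oas1g, Rsad2, Bst2, Ifih1, Ddx58, Ddx60, Oas3, Oas1a and Isg15. The STAT dimer site, searched as TTCNNNGAA, whose reverse complement has the same form, occurred in 7 of 29 windows (24.1%), against 9.55% of genes. Matches of one motif may overlap each other. Mx1, Mx2, Oas2, Usp18, Dhx58, Zbp1, Rtp4, Tor3a, Parp9 and Parp14 had no window in the table.

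The stretches below, 5′ to 3′ on the gene's strand and ending at the base before its start, are shown because they carry the element through which ISGF3 acts, together with Irf7 and Oasl1, whose windows held no match and whose levels are described further on. Capitals mark ISRE core matches. They lie at chr4:156200819-156200948 (minus strand, Isg15), chr19:34640759-34640888 (plus, Ifit1), chr19:34583369-34583528 (plus, Ifit3), chr12:26456453-26456582 (minus, Rsad2), chr5:120907526-120907655 (minus, Oas1a), chr5:120887614-120887743 (minus, Oas1g), chr5:120777660-120777789 (minus, Oas3), chr8:71537473-71537602 (minus, Bst2), chr7:141266425-141266554 (minus, Irf7) and chr5:114923110-114923239 (plus, Oasl1), all in GRCm38.p6.
Isg15: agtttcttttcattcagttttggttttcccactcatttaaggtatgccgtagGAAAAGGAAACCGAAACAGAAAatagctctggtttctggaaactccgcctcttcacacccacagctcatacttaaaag
Ifit1: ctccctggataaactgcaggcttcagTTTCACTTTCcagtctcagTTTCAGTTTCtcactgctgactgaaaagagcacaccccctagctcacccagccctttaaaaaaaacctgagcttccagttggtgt
Ifit3: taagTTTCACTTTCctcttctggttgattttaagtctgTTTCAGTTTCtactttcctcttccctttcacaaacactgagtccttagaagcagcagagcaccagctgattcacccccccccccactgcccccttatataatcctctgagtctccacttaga
Rsad2: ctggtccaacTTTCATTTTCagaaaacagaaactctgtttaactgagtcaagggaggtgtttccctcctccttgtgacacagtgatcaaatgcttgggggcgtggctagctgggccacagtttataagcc
Oas1a: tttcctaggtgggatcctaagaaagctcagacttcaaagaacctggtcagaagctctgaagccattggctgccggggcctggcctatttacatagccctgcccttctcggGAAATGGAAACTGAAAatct
Oas1g: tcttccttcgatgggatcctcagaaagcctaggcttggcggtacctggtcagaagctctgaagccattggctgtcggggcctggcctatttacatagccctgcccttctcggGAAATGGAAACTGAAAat
Oas3: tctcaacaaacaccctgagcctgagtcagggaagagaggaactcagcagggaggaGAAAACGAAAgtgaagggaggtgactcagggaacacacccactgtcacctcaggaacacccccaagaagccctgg
Bst2: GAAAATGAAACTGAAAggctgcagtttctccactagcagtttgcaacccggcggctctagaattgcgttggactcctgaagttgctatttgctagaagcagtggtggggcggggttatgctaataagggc
Irf7: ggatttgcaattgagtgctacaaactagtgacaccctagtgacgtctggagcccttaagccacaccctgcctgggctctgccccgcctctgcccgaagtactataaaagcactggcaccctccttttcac
Oasl1: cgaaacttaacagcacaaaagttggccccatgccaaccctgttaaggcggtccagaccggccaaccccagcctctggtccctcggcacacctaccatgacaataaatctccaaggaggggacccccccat

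In Isg15, which encodes a ubiquitin-like protein attached to other proteins, 3 overlapping cores began 78, 72 and 66 bases before the start. Ifit1 and Ifit3 each held 2 separate cores on the opposite strand, at 104 and 85 bases before the start in Ifit1 and at 156 and 122 in Ifit3. Oas1a and Oas1g held the same 2 overlapping cores within 20 bases of the start, Bst2 held 2 overlapping cores at 130 and 124 bases, and Rsad2 and Oas3 held 1 each. A match describes letters in a window and does not show binding. The 14 genes with a core had a median log2 change of -0.65 with DHA and -0.89 with cpdA in the fit of 9 libraries described below, and the 15 genes without one had medians of -0.61 and -0.75. That order was not kept without cpdA 3 and LPS 3, a fit also described below. There the medians were -0.51 and -0.27 with a core and -0.52 and -0.29 without one. The difference between these sets of genes was not tested.

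Levels are the authors' normalized counts: nearly all values in a library were whole multiples of 1 step, as read counts divided by a size factor would be, and the depth recovered from those steps was 13797079 to 37572822 reads per library. They are not divided by transcript length, so genes are compared with themselves across libraries and not with each other. Sequence shared with other genes limits 5 of the 39: over 10% of the 50-base words of the transcripts of Oas1a, Oas1g, Ifit3, Herc6 and Rtp4 also occurred in another gene's transcripts. Oas1a shared 57.6% of its words with Oas1g, and Ifit3 shared 51.2% with Ifit3b, so the split of reads within those pairs is uncertain.

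Several libraries stood apart, and this bears on every result that follows. Set against LPS 1 and 2 averaged, the 39 genes had a median log2 level of 0.38 in LPS 3, -0.34, -0.78 and -0.49 in DHA 1, 2 and 3, -0.34 and -0.30 in cpdA 1 and 2, and -1.54 in cpdA 3, while the median over all kept genes lay between -0.02 and 0.02 in every library. LPS 3 was the highest of the 9 libraries for 38 of the 39 genes (24.1% of kept genes), all but Bst2. cpdA 3 was the lowest of the 9 for 37 of the 39 (27.6% of kept genes), all but Oas2 and Irf9. DHA 2 was the lowest DHA library for 39 of 39 (39.4% of kept genes). DHA 1 and cpdA 1, although of different groups, were close to each other. Their median absolute log2 difference over the 39 genes was 0.026 and the largest 0.075, against 0.059 and 0.16 between LPS 1 and LPS 2. A wider measure took, at equal depth, all genes with enough reads in the pair. Their median squared difference, scaled by counting error, was 1.26 times the median from sampling noise alone. The ratio was 1.56 for LPS 1 with LPS 2 and 4.93 for DHA 1 with DHA 2. The ratio for DHA 1 with cpdA 1 was the smallest of all 36 pairs of libraries, below that of every pair within a group. Whether one of them is a mislabelled or repeated culture cannot be told from these files. They were counted as separate libraries under their labels, so every DHA and cpdA value and call below depends on those labels.

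**Figure D1:**
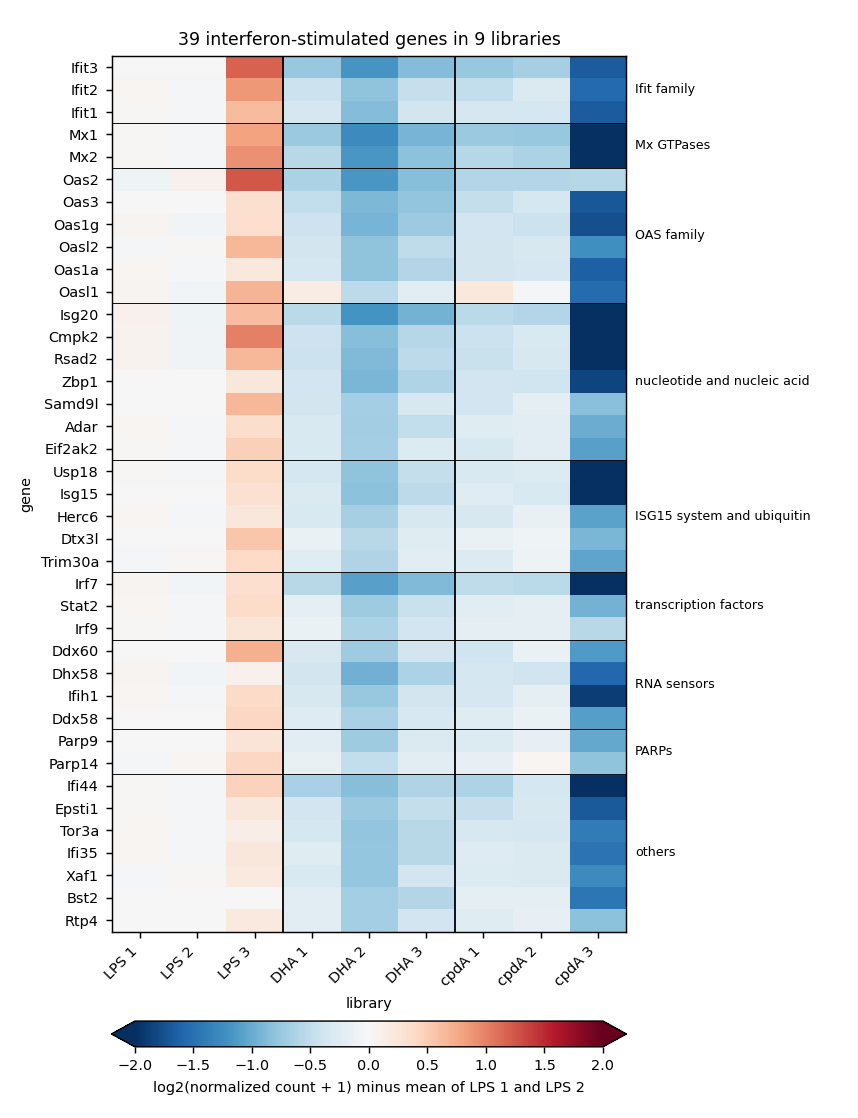
Heat map of the 39 genes (rows, grouped by role) in the 9 libraries (columns). Colour gives log2(normalized count + 1) minus the gene's mean over LPS 1 and LPS 2, cut at 2 in both directions; LPS 3 is red for nearly every gene, the DHA libraries and cpdA 1 and 2 are mostly pale to mid blue, and cpdA 3 is the darkest column except at Oas2 and Irf9.

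With DHA before LPS, all 39 genes had lower mean levels than with LPS alone. The median log2 change was -0.65, from -1.33 for Ifit3 to -0.42 for Parp14, against a median near 0 over the 13895 kept genes, of which 50.2% had a negative change; 728 of the kept genes had a change more negative than the median of the 39. All 3 DHA libraries lay below all 3 LPS libraries for 38 of the 39 genes, the exception being Oasl1, against 15.0% of kept genes. In limma's moderated test over all 9 libraries, with Benjamini-Hochberg adjustment over the kept genes and a threshold of 0.05, 0 of 39 were called, and 0% of kept genes were called lower; 15 of the 39 had an unadjusted p under 0.05 (14.2% of kept genes in either direction). The smallest adjusted p by limma was 0.214, for Oas2. edgeR called 0 of 39 (0.00720% of kept genes lower) and DESeq2 called 2, Ifit3 and Oas2 (1.07%).

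With cpdA before LPS, all 39 genes also had lower mean levels than with LPS alone, with a median log2 change of -0.85, from -1.72 for Mx1 to -0.39 for Irf9, against a median near 0 over kept genes (50.6% negative). All 3 cpdA libraries lay below all 3 LPS libraries for 37 of the 39 genes, all but Oasl1 and Parp14, against 12.2% of kept genes. By limma 0 of 39 were called (0% of kept genes lower), 35 had an unadjusted p under 0.05 (14.6% of kept genes), and the smallest adjusted p was 0.224, for Ifit3. edgeR called 0 of 39 (0% of kept genes lower) and DESeq2 called 4, Ifit3, Mx1, Mx2 and Oas2 (1.42%). Both comparisons use the same 3 LPS libraries, so their shared direction is not separate evidence.

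**Figure D2:**
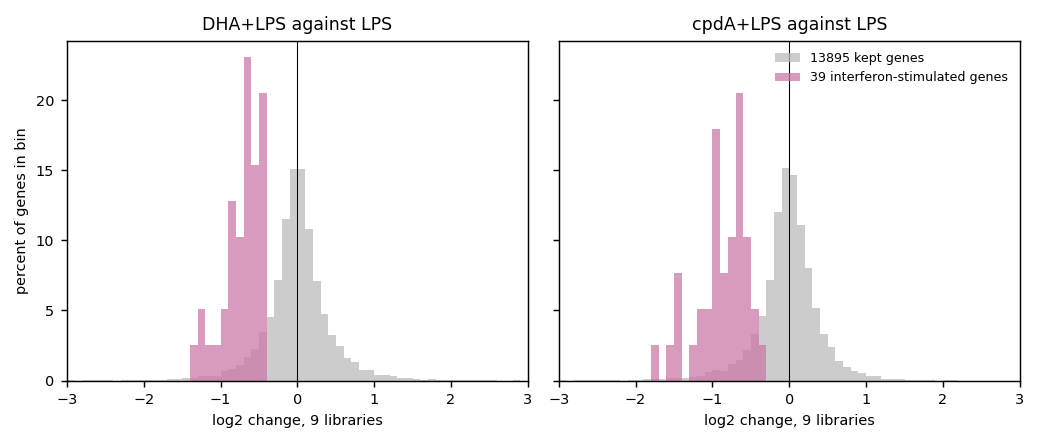
Distribution of log2 changes against LPS for all kept genes (grey) and the 39 genes (pink), as the percent of each set in bins of 0.1, in the fit of 9 libraries, for DHA (left) and cpdA (right). Both sets of pink bars lie wholly below 0, at medians of -0.65 and -0.85.

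The spread within groups was wide. The median SD of log2 levels over the 39 genes was 0.22 in the LPS group, 0.23 in the DHA group and 0.69 in the cpdA group, against 0.18, 0.15 and 0.23 over kept genes, while between LPS 1 and LPS 2 alone it was 0.042. Without cpdA 3 and LPS 3, in a fit of the other 7 libraries, limma called 27 of the 39 genes lower with DHA, against 4.04% of kept genes, at a median log2 change of -0.54, from -0.98 for Mx1 to -0.20 for Oasl1. The genes not called were Ifit1, Oasl1, Irf9, Stat2, Ddx58, Rtp4, Eif2ak2, Trim30a, Parp14, Herc6, Parp9 and Dtx3l, and edgeR called 32 (4.57% of kept genes) and DESeq2 36 (5.22%) on the same 7 libraries. Of the genes that limma did not call, edgeR called Ifit1, Ddx58, Rtp4, Eif2ak2 and Herc6, and DESeq2 called these and Irf9, Stat2, Trim30a and Parp9. With cpdA the same fit called 2 of 39 lower, Ifit3 and Mx1, against 0.885% of kept genes, at a median of -0.29, and edgeR called 4 (1.16%) and DESeq2 10 (1.58%). With the replicate number as a block, limma called 15 with DHA (2.55% of kept genes) and 1 with cpdA (0.648%), Mx1, while Ifit3 was just outside the threshold (limma adjusted p 0.0507). Weighting the libraries by their fit, in place of leaving any out, gave 36 of 39 lower with DHA (14.8% of kept genes) and 2 of 39 with cpdA (1.88%). The median for cpdA thus moved from -0.85 to -0.29 when these libraries were left out, and 1 gene, Oasl1, changed sign, to 0.09.

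DHA 1 and cpdA 1 mattered as well. Leaving out DHA 1 in addition to cpdA 3 and LPS 3 gave 39 of 39 lower with DHA by limma (11.5% of kept genes lower) and 17 of 39 lower with cpdA (2.84%). With the replicate number as a block these counts were 39 (15.8%) and 36 (7.20%), from a fit with 1 residual degree of freedom. Leaving out cpdA 1 instead gave 16 with DHA (2.74%) and 0 with cpdA (0.0288%), where cpdA 2 stood alone and was assumed to vary like the other groups. With all libraries but cpdA 3, 14 of 39 were lower with DHA (1.58%) and 0 with cpdA (0%). cpdA 3 belongs to neither group of the DHA comparison, and the DHA median stayed at -0.65 there. For DHA, leaving it out changed only the spread, which the fit shares over groups. With only the LPS and DHA libraries fitted, limma called 0 of 39 with DHA (5 of all kept genes lower). Leaving out LPS 3 alone also gave 0 with DHA (0 of all kept genes lower). With all libraries but DHA 1 and cpdA 1, limma called none of the 39 in either comparison, at medians of -0.76 with DHA and -1.01 with cpdA. Which libraries are kept therefore decides how many of the genes pass, and in every one of these fits the median change of the 39 was negative against LPS for both pretreatments.

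**Figure D3:**
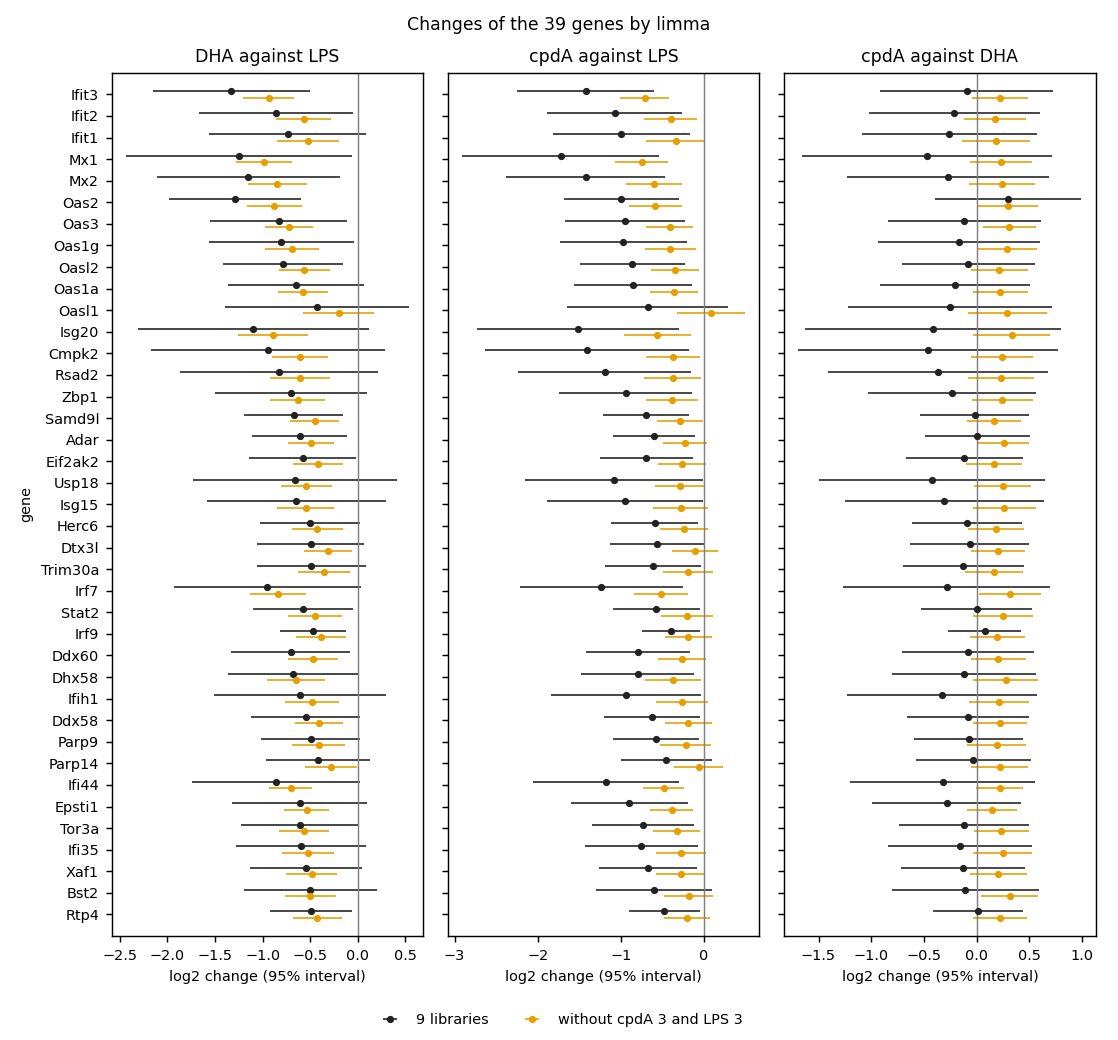
Log2 changes of the 39 genes by limma with 95% intervals, for DHA against LPS (left), cpdA against LPS (middle) and cpdA against DHA (right), in the fit of 9 libraries (black) and without cpdA 3 and LPS 3 (orange). Intervals are narrower in orange, and in the right panel the points move from mostly below 0 to above 0 for all 39 genes.

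Among the effectors, the product of Ifit1 binds viral RNA lacking the cap modifications of the host, and Ifit2 and Ifit3 belong to the same gene family. Ifit3 was at 35811, 35067 and 80288 in LPS 1, 2 and 3, at 20892, 15679 and 19407.5 in DHA 1, 2 and 3, and at 20958, 22309 and 11149 in cpdA 1, 2 and 3. Every pretreated library was below every LPS library, and the LPS mean of 50389 ± 25896 (SD, n = 3) was 2.70 times the DHA mean of 18659.6 ± 2686 (SD, n = 3) and 2.78 times the cpdA mean of 18139 ± 6091 (SD, n = 3). LPS 3 alone was 2.27 times the mean of LPS 1 and 2, and against LPS 1 and 2 the ratio to DHA was 1.90. The log2 change of Ifit3 with DHA was -1.33 ± 0.36 (SE; limma adjusted p 0.242), and without cpdA 3 and LPS 3 it was -0.94 ± 0.12 (limma adjusted p 0.00152) with DHA and -0.71 ± 0.13 (limma adjusted p 0.0206) with cpdA.

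Ifit1 was at 63150.5, 60831.5 and 96223 in the LPS libraries, at 49205, 33983 and 47893 in the DHA libraries, and at 49147, 48697 and 19561 in the cpdA libraries. Ifit2 was at 112502, 107033 and 200846 with LPS, at 81443.5, 62562 and 79295 with DHA, and at 77682, 89379.8 and 37414 with cpdA. Neither gene overlapped between LPS and either pretreatment, and LPS 3 was above LPS 1 and 2 by 1.55 times for Ifit1 and 1.83 times for Ifit2. Without cpdA 3 and LPS 3, Ifit2 fell by 0.57 on the log2 scale with DHA (limma adjusted p 0.0271), and the change of Ifit1 was -0.52, short of the threshold (limma adjusted p 0.0562).

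The Mx genes encode dynamin-like GTPases that trap viral nucleocapsids. Mx1 was at 38561, 37449 and 66069.8 with LPS, at 22604, 15722 and 20013 with DHA, and at 22707, 22485 and 5208 with cpdA. The cpdA libraries were far from alike, cpdA 1 and 2 averaging 4.34 times cpdA 3, while cpdA 1 and 2 were close to each other and to DHA 1. Mx1 had the largest change with cpdA, -1.72 ± 0.52 (SE; limma adjusted p 0.233), which was -0.75 ± 0.15 without cpdA 3 and LPS 3 (limma adjusted p 0.0274). Its change with DHA was -1.25 ± 0.52 in 9 libraries (limma adjusted p 0.337) and -0.98 ± 0.13 in 7 (limma adjusted p 0.00197).

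Mx2 was at 5679, 5507 and 10534 with LPS, at 3796, 2504 and 3177 with DHA, and at 3773, 3605 and 1262 with cpdA, again with no overlap with LPS. In those 7 libraries Mx2 fell by 0.84 with DHA (limma adjusted p 0.00695), and its change with cpdA was -0.60 (limma adjusted p 0.104).

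The OAS genes encode enzymes that answer double-stranded RNA by making 2-5A, the activator of RNase L, and the related OASL proteins. Oas2 was at 4713, 5282 and 11839 with LPS, at 3228, 2231.5 and 2777 with DHA, and at 3334, 3322 and 3373 with cpdA. It was the one gene of the 39 that was not lowest in cpdA 3 among the cpdA libraries: its SD of log2 level in the cpdA group was 0.012, the smallest of the 39, and its SD in the LPS group, 0.72, was the largest. Its change with DHA was -1.29 ± 0.31 in 9 libraries (SE; limma adjusted p 0.214) and -0.88 ± 0.13 in 7 (limma adjusted p 0.00371).

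Oas3, next to Oas2 in the genome, was lowest in cpdA 3: it was at 14709, 15939 and 6301 in the cpdA libraries, at 14432, 10981 and 11843 with DHA and at 20242, 20484 and 25536 with LPS. Oas1a was at 13159, 12508 and 14781 with LPS, at 10078, 7341 and 8555 with DHA, and at 9926, 10137 and 4117 with cpdA. Both genes fell with DHA without cpdA 3 and LPS 3, by 0.72 for Oas3 (limma adjusted p 0.00461) and by 0.58 for Oas1a (limma adjusted p 0.0166). Oas1g, whose reads cannot be fully separated from those of Oas1a, and Oasl2 were also called lower with DHA in that fit, with changes of -0.69 and -0.56.

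Oasl1, whose product restrains the translation of Irf7 mRNA, was the exception among the 39. It was at 13865, 12795 and 21248 with LPS, at 14733, 9277 and 11365 with DHA, and at 15392, 13049 and 4587 with cpdA. DHA 1, cpdA 1 and cpdA 2 lay within the range of the LPS libraries, and no fit described here called it against LPS except those without DHA 1, cpdA 3 and LPS 3, and these only with DHA. Its change with DHA was -0.43 ± 0.43 in 9 libraries (limma adjusted p 0.668) and -0.20 ± 0.17 in 7 (limma adjusted p 0.518), and with cpdA it was -0.68 ± 0.43 in 9 (limma adjusted p 0.488) and 0.09 ± 0.18 in 7 (limma adjusted p 0.916).

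Rsad2 encodes viperin, which makes a chain-terminating nucleotide from the substrate supplied by the product of its neighbour Cmpk2. Rsad2 was at 253280.0, 230750.0 and 383202 with LPS, at 180107, 131808 and 168540.0 with DHA, and at 178420.0, 194397 and 53797 with cpdA. No pretreated library reached the lowest LPS library, and the LPS mean was 1.81 times the DHA mean and 2.03 times the cpdA mean. Rsad2 and Cmpk2 both fell by 0.61 with DHA without cpdA 3 and LPS 3, with limma adjusted p of 0.0281 and 0.0222.

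Isg20 encodes an RNA exonuclease and had the largest spread in the cpdA group, an SD of 1.29 on the log2 scale. It was at 2930.2, 2619 and 4248 with LPS, at 1910.4, 1204 and 1441 with DHA, and at 1907, 1847 and 397.5 with cpdA. Zbp1, a sensor of Z-form nucleic acid that starts necroptosis, was at 14712, 14870.0 and 17283 with LPS, at 11322, 7844 and 9799 with DHA, and at 11383, 11257 and 4163 with cpdA. The RNA-editing enzyme Adar, which marks self RNA, was at 11536, 10989 and 14431 with LPS, at 9157.5, 6985.5 and 8025 with DHA, and at 9516, 9647 and 5673.5 with cpdA. In all 3 genes each pretreated library was below each LPS library. All 3 fell with DHA without cpdA 3 and LPS 3, by 0.89, 0.63 and 0.49, with limma adjusted p of 0.0148, 0.0166 and 0.0235. The translation-blocking kinase gene Eif2ak2 (PKR) did not pass by limma there, at -0.42 (limma adjusted p 0.0593), but did by edgeR and DESeq2, and Samd9l passed by limma, at -0.45 (limma adjusted p 0.0414).

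In the ISG15 system, Isg15 was at 38644, 37874 and 47307 with LPS, at 31360.2, 21644 and 26574 with DHA, and at 32213, 30814 and 9616 with cpdA. Usp18, the protease that removes ISG15 and damps signalling at IFNAR2, was at 16248, 15696 and 20495 with LPS, at 12577, 9158 and 11528 with DHA, and at 12939, 13183 and 3233 with cpdA. Both genes separated the LPS libraries from the pretreated ones, and both fell by 0.54 with DHA without cpdA 3 and LPS 3 (limma adjusted p 0.0372 and 0.0248). The ubiquitin or ISG15 ligases Herc6 and Dtx3l and Trim30a, a TRIM protein, had smaller changes of -0.43, -0.31 and -0.35 in that fit, and limma called none of them. edgeR called Herc6 there, and DESeq2 called Herc6 and Trim30a.

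Of the transcription factors, Irf7, which amplifies interferon production, had the largest differences. It was at 35738.5, 32798 and 43174 with LPS, at 23250.5, 16213 and 18641 with DHA, and at 24111, 23612 and 6825 with cpdA. The LPS mean was 1.92 times the DHA mean and 2.05 times the cpdA mean, with no overlap. Irf7 fell by 0.84 ± 0.14 with DHA without cpdA 3 and LPS 3 (SE; limma adjusted p 0.00465), and its change with cpdA was -0.52 ± 0.15 (limma adjusted p 0.137).

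Stat2 and Irf9, which act in ISGF3, differed less between groups. Stat2 was at 17887, 17036 and 22541 with LPS, at 15232, 10654 and 12809 with DHA, and at 15112, 15248 and 9022 with cpdA. Irf9 was at 3419, 3333 and 4003 with LPS, at 3063, 2182 and 2582 with DHA, and at 2964, 2961 and 2299 with cpdA. Pretreated libraries were below LPS libraries for both, and without cpdA 3 and LPS 3 the changes with DHA were -0.45 for Stat2 and -0.39 for Irf9 (limma adjusted p 0.0603 and 0.073). Neither passed by limma or edgeR there, and DESeq2 called both. In Irf9, DHA 2 and not cpdA 3 was the lowest library of all 9.

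The sensors of viral RNA in the cytosol include Ddx58 (RIG-I) and Ifih1 (MDA5). Ddx58 was at 15991, 16185 and 21476 with LPS, at 13413, 10296 and 12864 with DHA, and at 13599, 14710.5 and 7509 with cpdA. Ifih1 was at 31192, 29537 and 39525 with LPS, at 24256, 18013.5 and 23594 with DHA, and at 24001, 26516 and 8199 with cpdA. Ifih1 fell by 0.48 with DHA without cpdA 3 and LPS 3, just within the threshold (limma adjusted p 0.0498), and Ddx58 was just outside it at -0.41 (limma adjusted p 0.0579). Dhx58 (LGP2), which modulates both sensors, and Ddx60 also passed with DHA in that fit, at -0.65 and -0.47.

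The PARP genes Parp14 and Parp9, whose products attach or read ADP-ribose, had the smallest median difference of any role. Parp14 was at 54041, 56671.5 and 74091 with LPS, at 49954, 39489.9 and 47883 with DHA, and at 49153, 57096 and 31523 with cpdA. cpdA 2 lay between the LPS libraries, and the change with DHA without cpdA 3 and LPS 3 was -0.28 (limma adjusted p 0.200). Parp9, with Dtx3l its neighbour and partner, was at a log2 change of -0.41 there (limma adjusted p 0.0775).

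Bst2 encodes tetherin, which holds budding virus at the cell surface. It was at 16487, 16169.8 and 16324 with LPS, at 13888, 10206 and 10919.6 with DHA, and at 14253, 14481 and 6015 with cpdA. The LPS libraries were nearly equal, with a log2 SD of 0.014, the smallest of the 39 in that group, and LPS 3 was not raised. Bst2 fell by 0.50 with DHA without cpdA 3 and LPS 3 (limma adjusted p 0.034), the same change as in all 9 libraries. Rtp4 was at 8431, 8314 and 9549 with LPS, at 7158, 5252 and 6437 with DHA, and at 7102, 7459 and 4716 with cpdA, and was not called by limma with 9 or 7 libraries, whereas edgeR and DESeq2 called it with DHA in the 7. Ifi44, Ifi35, Xaf1, Epsti1 and Tor3a passed by limma with DHA without cpdA 3 and LPS 3, at changes from -0.70 for Ifi44 to -0.48 for Xaf1.

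The pretreatments were compared at different doses, 100 µM DHA and 10 µM cpdA, for the same times. In all 9 libraries 34 of the 39 genes had a lower mean with cpdA than with DHA (54.6% of kept genes), with a median log2 difference of -0.13. By limma 0 were called (0% of kept genes in either direction), and 0 had an unadjusted p under 0.05 (1.02% of kept genes). The intervals were wide: the difference for Mx1 was -0.47 with a 95% interval from -1.66 to 0.71, and for Irf9 0.08 with an interval from -0.27 to 0.42, so they do not show that the pretreatments act alike.

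Without cpdA 3 and LPS 3 the direction turned. All 39 genes were then higher with cpdA than with DHA (45.7% of kept genes had a negative difference), with a median difference of 0.22, from 0.15 for Epsti1 to 0.33 for Isg20, and limma called 0, at a smallest adjusted p of 0.754. The interval for Mx1 ran from -0.06 to 0.53 and that for Irf9 from -0.06 to 0.46. Leaving out DHA 1 as well, limma called 20 of the 39 higher with cpdA (3.64% of kept genes higher), with Isg20 at 0.51 (limma adjusted p 0.00141). With the replicate number as a block that fit called 39 (10.7%) on 1 residual degree of freedom, and the block gave 0 (0%) in the fit of 7 libraries. Leaving out cpdA 1 in place of DHA 1, 0 were called, and leaving out DHA 1 alone, or DHA 1 and cpdA 1, limma also called 0. The sign of the median turned on leaving out cpdA 3 alone, and genes of the 39 were called only where cpdA 3, LPS 3 and DHA 1 were all left out.

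Upstream of the programme, Ifnb1, the gene of interferon beta, was measured at low counts. It was at 21.7, 35.7 and 65.5 with LPS, at 11.1, 9 and 8.9 with DHA, and at 10.6, 6.6 and 0 with cpdA, from 20, 31, 64, 5, 8, 8, 10, 8 and 0 reads. The pretreated libraries all lay below the LPS libraries, but cpdA 3 had no read, which allows up to 3 reads (2.72 normalized counts) from counting error alone. The LPS mean was 4.24 times the DHA mean, and the log2 change with DHA was -1.84 ± 0.83 in 9 libraries (SE; limma adjusted p 0.358) and -1.44 ± 0.40 in 7 (limma adjusted p 0.0555).

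Of 21 genes listed between LPS sensing and interferon production, 14 were kept. The other 7, alpha and zeta interferon genes, were not found by symbol in the deposited table. By limma 0 of the 14 were called in 9 libraries with either pretreatment, at medians of -0.27 with DHA and -0.31 with cpdA. Without cpdA 3 and LPS 3, limma called 3 of 14 lower with DHA (4.04% of kept genes): Ikbke, the TLR4 partner gene Ly96 at -0.37 (limma adjusted p 0.0335) and Irf8 at -0.42 (limma adjusted p 0.0311). Ikbke, a kinase that activates IRF3 and IRF7, was at 13304, 12796 and 14425 with LPS, at 8966, 7128 and 7739 with DHA, and at 9269, 8408 and 10124 with cpdA. It was lower in every pretreated library, was not lowered further in cpdA 3, and fell in that fit with DHA by 0.72 (limma adjusted p 0.00304) and with cpdA by 0.56 (limma adjusted p 0.0356). Irf3, the factor that first switches on Ifnb1, ranged from 744 to 903 over all 9 libraries, with a change of -0.13 with DHA (limma adjusted p 0.532). The adaptor gene Ticam1 and the kinase gene Tbk1 had changes of -0.03 and -0.27 with DHA (limma adjusted p 0.937 and 0.391).

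Of 12 genes of the receptor and its signalling, 0 were called in 9 libraries and 2, Tyk2 and Ptpn6, were lower with DHA without cpdA 3 and LPS 3 (4.04% of kept genes), at -0.42 and -0.40 (limma adjusted p 0.0275 and 0.0379). The receptor gene Ifnar1 was at 7984, 7746 and 6366 with LPS, at 8451, 6652 and 7683 with DHA, and at 8317, 8084 and 4997 with cpdA, so its groups overlapped. Its partner Ifnar2 and the kinase gene Jak1 had changes with DHA of -0.15 and -0.13 without cpdA 3 and LPS 3 (limma adjusted p 0.485 and 0.414). Socs1, a feedback inhibitor of the kinases, was at -0.59 there, just outside the threshold (limma adjusted p 0.0502).

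**Figure D4:**
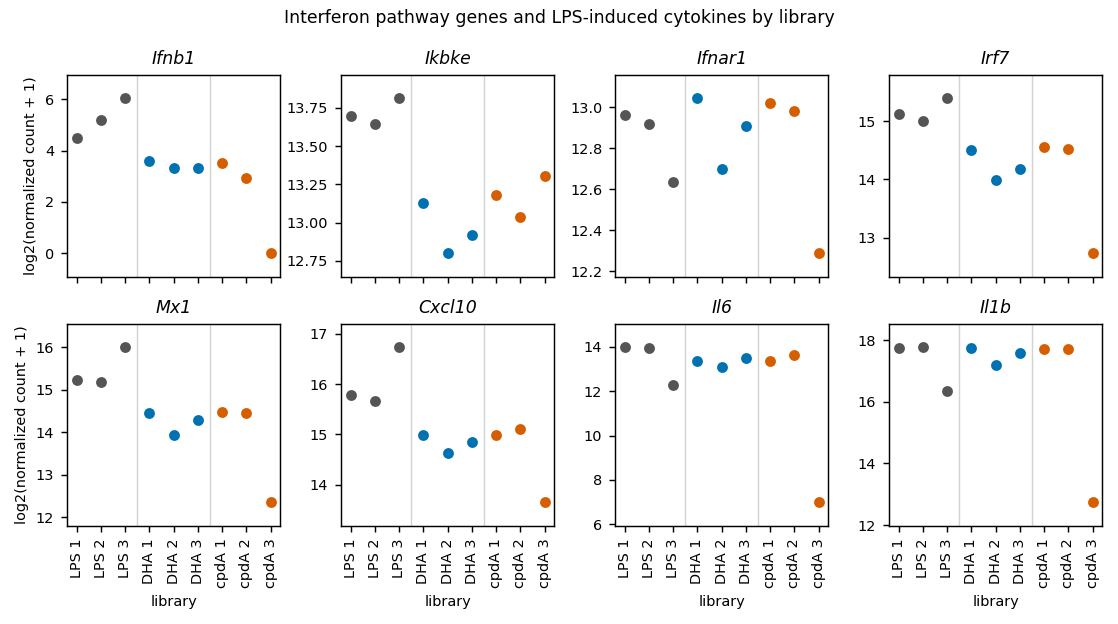
Log2(normalized count + 1) in each library (grey LPS, blue DHA, orange cpdA) for interferon pathway genes and 2 cytokines; each panel has its own vertical range. Ifnb1, Irf7, Mx1 and Cxcl10 are highest in LPS 3 and lowest in cpdA 3, whereas Il6 and Il1b are low in both of these libraries.

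A second list of interferon-stimulated genes outside the 39, of which 57 were kept, was lower on the same scale: all 57 had negative changes with both pretreatments in 9 libraries, at medians of -0.59 and -0.79, and 0 were called. Without cpdA 3 and LPS 3, 37 of 57 were lower with DHA (4.04% of kept genes) and 10 with cpdA (0.885%). The 37 were Aim2, Apobec3, Casp4, Cxcl9, Cxcl10, Daxx, Fcgr1, Ifi204, Ifi205, Ifi27l2a, Ifi47, Ifitm3, Lgals9, Ly6e, Mlkl, Mnda, Mov10, Ms4a4c, Nmi, Parp11, Phf11a, Phf11b, Phf11d, Pml, Psmb8, Psmb9, Samhd1, Slfn1, Slfn4, Slfn8, Slfn9, Sp100, Trim12a, Trim21, Trim34a, Uba7 and Ube2l6, with changes from -0.98 for Ms4a4c to -0.43 for Slfn8. The 10 called with cpdA were Apobec3, Cxcl9, Cxcl10, Fcgr1, Ms4a4c, Parp11, Phf11a, Phf11b, Slfn1 and Slfn4, from -0.83 for Ms4a4c to -0.55 for Slfn1. The chemokine gene Cxcl10 was at 56126, 51819 and 109084 with LPS, at 32689, 25402 and 29401 with DHA, and at 32508, 35475 and 12886 with cpdA. It fell in that fit by 0.89 with DHA and by 0.67 with cpdA (limma adjusted p 0.00177 and 0.0269). The Fc receptor gene Fcgr1 fell by 0.94 and by 0.74 (limma adjusted p 0.000318 and 0.00452).

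The libraries that stood apart did so differently for interferon genes and for other LPS-induced cytokines. In LPS 3 the interferon genes were high, but Il6 was at 5043, against 16329 and 15859.8 in LPS 1 and 2, and Il1b was at 83957, against 221480.0 and 224382. In cpdA 3 both were low, Il6 at 126, against 10418 and 12593 in cpdA 1 and 2, and Il1b at 6839.8, against 213646 and 212644. Tnf was at 104072, 99204 and 56873 with LPS, at 97130.3, 60863 and 76411 with DHA, and at 96546, 84474 and 30769.8 with cpdA, lowest within its group in LPS 3 and cpdA 3. The macrophage gene Lyz2 lay between 447053 and 459826 in 7 libraries but at 210386 in LPS 3 and at 269048 in cpdA 3. The summed level of the 7 macrophage markers found was 303765 to 547055 in the LPS libraries, 529919 to 545322 in the DHA libraries and 353069 to 546514 in the cpdA libraries. Most of that sum was Lyz2, and the 7 include Fcgr1, which is also on the second list of interferon-stimulated genes. The median log2 level of the 7 markers, set against LPS 1 and 2 averaged, was -0.08 in LPS 3 and -0.64 in cpdA 3. These markers were present in every library. The summed level of 6 markers of resident peritoneal macrophages was 961.8 in LPS 3 and 963.4 in cpdA 3, against 2392.2 to 2695 in the other libraries. Their median log2 level, set against LPS 1 and 2 averaged, was -0.94 in cpdA 3. It was -0.30 in LPS 3, close to -0.33 in DHA 3 and -0.29 in cpdA 1. The summed level of the 6 markers found of plasmacytoid dendritic cells, a rich source of interferon, was 3786.9 in LPS 3 and 1201.5 in cpdA 3, against 1963.7 to 2405 elsewhere. Most of that sum was Tcf4, at 3637.5 in LPS 3 and 1003.2 in cpdA 3, while the defining marker Siglech was at 0 to 15.3 over all libraries. The list as a whole was not highest in LPS 3. The median log2 level of its 5 kept markers, set against LPS 1 and 2 averaged, was 0.19 in LPS 3 and -0.29 in cpdA 3. That median was 0.47 in cpdA 1, 0.38 in cpdA 2 and 0.45 in DHA 3. Markers of mesothelium and fibroblasts summed to 25798.3 in LPS 3 and 20597.1 in cpdA 3, against 15118.8 to 19028.3 elsewhere. Their median log2 level, set against LPS 1 and 2 averaged, was 0.84 in LPS 3 but only 0.02 in cpdA 3, against 0.12 in cpdA 2. The 2 neutrophil markers found summed to 225.1 and 130.4, against 346.7 to 473 elsewhere. The median log2 level of the 3 kept mast cell markers, set against LPS 1 and 2 averaged, was 1.08 in LPS 3 and 1.19 in cpdA 3 and at most 0.01 elsewhere. The summed level of the 4 mast cell markers found was not raised in LPS 3, at 207.7 against 208.7 and 191.3 in LPS 1 and 2. That sum was 269.7 in cpdA 3. The nuclear RNA Neat1 was at 46514 in cpdA 3, against 7382 to 15888 in the other libraries. It is 1 of 4 listed RNAs, whose summed level in cpdA 3 was 53771.8, most of it Neat1. The median log2 level of the 4, set against LPS 1 and 2 averaged, was 0.90 in cpdA 3 and 0.67 in LPS 3. Elsewhere that median was -0.29 to 0.39. The part of these differences in the levels of the 39 genes was not tested.

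Several of the 39 lie side by side. In RefSeq's order of protein-coding genes, 13 of 37 matched genes had another of the set as the next gene, in 7 pairs: Rsad2 with Cmpk2, Parp14 with Dtx3l, Dtx3l with Parp9, Ifit2 with Ifit3, Oasl2 with Oasl1, Oas2 with Oas3, and Oas1g with Oas1a. With DHA in 9 libraries the log2 change was -0.86 for Ifit2 and -1.33 for Ifit3, -0.78 for Oasl2 and -0.43 for Oasl1, -1.29 for Oas2 and -0.83 for Oas3, and -0.83 for Rsad2 and -0.95 for Cmpk2. Without cpdA 3 and LPS 3 these changes were, in the same order, -0.57 and -0.94, -0.56 and -0.20, -0.88 and -0.72, and -0.61 and -0.61. The differences between neighbours were not tested.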

How the data were processed

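RNA was sequenced from 9 libraries in 3 groups. The authors' deposited values are a signal per gene and library, read here from their steps as read counts divided by a size factor per library. CASAVA 1.8.2, Bowtie2, DESeq and the mm9 build are named, per the submitters' processing notes. The counting program, annotation, strand setting and library kit were not given in the sources used here. The labels' growth and extraction protocols are about other material (neural stem cells, DNA bound to histones) and were not used. Whole reads were recovered from the value steps for 99.8 to 99.96% of values (tolerance 0.05 of a normalized count), giving the depths of 13797079 to 37572822 reads.

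Genes with a value of at least 10 in at least 3 libraries were kept (13895 of 15343). log2(value + 1) was fitted in limma 3.58.1 (R 4.3.3, statmod 1.5.0) with all 9 libraries in one model, a mean trend and robust moderation, and Benjamini-Hochberg adjustment over kept genes at 0.05; a fold on this scale understates changes of low genes. edgeR 4.0.16 (quasi-likelihood) and DESeq2 1.42.0 were run on the recovered reads as alternatives; in all 9 libraries DESeq2 gave no adjusted p for 279 genes with DHA, 1895 with cpdA and 9 between pretreatments. The scripts were tested on simulated data. P-values measure the spread between libraries, which may be technical.

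Every one of the 39 genes is named under its role, with values in every library for 19 of them and for those with the 3 largest and 3 smallest changes; pathway genes are named where they passed or were listed, and 1 of those listed is not reported here. The genes, lists and tests were chosen with earlier results of these data known. Labels share replicate numbers across groups. Deviations of same-numbered LPS and cpdA libraries correlated at 0.39, 0.23 and 0.44. Some pairs of unlike number were as high: cpdA 1 with LPS 2 gave 0.29, cpdA 2 with LPS 1 gave 0.26 and cpdA 3 with DHA 2 gave 0.45. Same-numbered LPS and DHA libraries gave 0.14, -0.07 and 0.02, and same-numbered DHA and cpdA libraries gave 0.41, -0.35 and 0.01. Number 3 stood apart in both the LPS and the cpdA group, so these values cannot tell whether libraries were paired. Fits without DHA 1 or cpdA 1 besides other libraries, edgeR and DESeq2 fits of 7 libraries, and block fits of fewer than 9 libraries were chosen after seeing the data. Promoter windows and gene order came from RefSeq and shared words from GENCODE transcripts, so their build differs from the mm9 named in the notes.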

Additional observations from a re-analysis of the deposited data

How the results depend on the processing

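Numbers of genes passing depended strongly on the libraries and tools, and the cause was not tested. With DHA, limma called 1 of all kept genes in 9 libraries. The count was 3 with the stricter filter, 3 with TMM scaling and 0 without both the trend and the robust moderation. It was 9 with only the libraries compared, 4303 with library weights, 3 by edgeR, 315 by DESeq2, 5 at a threshold of 0.1 and 0 at 0.01. It was 943 without cpdA 3 and LPS 3 (1157 by edgeR, 1345 by DESeq2), 3210 without DHA 1 as well, 618 without cpdA 1 as well, and 0 without DHA 1 and cpdA 1; leaving out one library at a time gave 0 to 373. Of the 39 genes, 0 were called with DHA in 9 libraries, 36 with library weights, 2 by DESeq2, 27 without cpdA 3 and LPS 3 (32 by edgeR, 36 by DESeq2), 39 without DHA 1 as well and 16 without cpdA 1 as well; single libraries left out gave 0 to 14, the 14 without cpdA 3. With cpdA, limma called 1 of all genes. The count was 0 without both the trend and the robust moderation and 0 with only the libraries compared. It was 563 with weights, 391 by DESeq2, 7 at 0.1 and 0 at 0.01. It was 222 without cpdA 3 and LPS 3 (290 by edgeR, 388 by DESeq2), 730 without DHA 1 as well, 8 without cpdA 1 as well and 0 without DHA 1 and cpdA 1; single libraries left out gave 0 to 3. Of the 39, the cpdA count was 0, 2 with weights, 4 by DESeq2, 2 without cpdA 3 and LPS 3 (4 by edgeR, 10 by DESeq2) and 17 without DHA 1 as well, and 0 with any single library left out. The median of the 39 with cpdA, -0.85, was -0.29 without cpdA 3 and LPS 3 (-0.29 by edgeR and DESeq2), -0.29 without DHA 1 as well and -0.30 without cpdA 1 as well, and -1.01 to -0.42 with single libraries left out; with DHA it was -0.76 to -0.53.

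Between pretreatments the median of -0.13 reversed to 0.13 with weights, 0.22 without cpdA 3 and LPS 3 (0.20 by edgeR, 0.21 by DESeq2), 0.32 without DHA 1 as well and 0.26 without cpdA 1 as well, with -0.32 to 0.22 over single libraries. All genes called numbered 0 in 9 libraries, 4 by DESeq2 without cpdA 3 and LPS 3, and 1215 without DHA 1 as well, where 20 of the 39 were called. With cpdA, Oasl1 reversed to 0.0061 with weights, 0.0896 without cpdA 3 and LPS 3 (0.0958 by edgeR, 0.0948 by DESeq2) and 0.0896 without DHA 1 as well, and Parp14 to 0.0451 without cpdA 1, cpdA 3 and LPS 3. Quantile scaling gave medians of -0.51 with DHA and -0.69 with cpdA.

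With the replicate number as a block in all 9 libraries, 0 genes were called with DHA and 0 with cpdA, and 0 with cpdA when only LPS and cpdA libraries were fitted with the block. None of the 39 was called there, at smallest limma adjusted p of 0.261 with DHA and 0.298 with cpdA. Without cpdA 3 and LPS 3 the block gave 549 genes with DHA, 15 of them among the 39, and 171 with cpdA, 1 among the 39, at a median of -0.29; the median between pretreatments was 0.26 and Oasl1 with cpdA 0.0896. Without DHA 1 as well it gave 4032 with DHA (39 of the 39), 1932 with cpdA (36, median -0.29, Oasl1 0.0896) and 2639 between pretreatments (39, median 0.49), on 1 residual degree of freedom. The block thus lowered the counts against LPS in the first of these fits and raised or kept every count in the second.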
